A study of Mus musculus with 5 samples.

Results

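The genes described here are 30 genes of cholesterol and fatty acid synthesis, chosen by symbol from the 5 count matrices of the series, and rows were found for 30 of the 30 among 32235 genes with a symbol. They comprise 8 genes of the mevalonate arm (Acat2, Hmgcs1, Mvk, Pmvk, Mvd, Idi1, Fdps, Ggps1), 11 of the sterol arm (Fdft1, Sqle, Lss, Cyp51, Tm7sf2, Msmo1, Nsdhl, Hsd17b7, Ebp, Sc5d, Dhcr7), 5 regulators (Srebf1, Srebf2, Scap, Insig1, Insig2), 5 of the fatty acid arm (Acly, Fasn, Scd2, Fads1, Fads2) and the sterol carrier gene Stard4. The rule names the genes and uses no measured value. Islets of Langerhans, the hormone-secreting clusters of the pancreas, were hand-picked from 5 NOD.SCID mice (NOD.Cg-Prkdcscid/J) and dispersed by trypsin, and each mouse gave 1 droplet library, so the mouse is the replicate. The scid mutation of Prkdc, carried by chow and HC mice alike, leaves these animals without mature T and B cells. The chow group was 3 mice aged 8 weeks (mouse 1) and 10 weeks (mice 2 and 3), and the HC group, fed 20% HC (hydrolyzed casein), was a 7-week-old (mouse 1) and a 9-week-old mouse (mouse 2).

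Cells make cholesterol from acetyl-CoA through mevalonate, isoprenoid diphosphates, squalene and lanosterol, and make fatty acids from the same acetyl-CoA. The transcription factors encoded by Srebf1 and Srebf2 switch these genes on. Their precursors sit in the endoplasmic reticulum bound to SCAP, and the INSIG proteins hold SCAP there while sterols are plentiful, so that sterol shortage releases the factors to the Golgi, where they are cleaved. Beta cells, which secrete insulin, package it in cholesterol-rich granules and make citrate from glucose, a carbon source for lipid synthesis.

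The libraries held 28722244 to 39624978 UMIs (unique molecular identifiers, each counting 1 captured transcript) in 4452 to 6087 barcodes, and 22758 cells passed the filters. Clustering was run without the 30 genes and without 40 other lipid genes, so that their levels did not define the cells. Beta-like, alpha-like, delta-like, macrophage-like, endothelial-like and stromal-like clusters, called by these names without the suffix from here on, held 19679 cells. Each mouse gave 1761 to 2659 beta, 760 to 1316 alpha, 388 to 513 delta, 57 to 128 macrophage, 81 to 275 endothelial and 30 to 131 stromal cells. Pairs of libraries shared 4 to 14 barcodes. Chow mouse 1 and HC mouse 1 have library names that start with FUN, and the names of the other 3 start with SKY, a difference whose meaning is not given. The prefixes stood apart: over beta cells the chi-square per degree of freedom was 5.14 to 5.70 between mice of one prefix and 18.8 to 36.8 between mice of different prefixes, so diet values are also given within each prefix. HC mouse 2 is HC by its diet label, while its title calls it chow fed.

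Insulin transcripts set the scale on which these genes can be read. The insulin genes took 61.4% to 69.2% of the UMIs of beta cells, 0.771% to 1.89% in alpha, 0.852% to 5.19% in delta, 0.656% to 3.87% in endothelial, 10.2% to 26.8% in macrophage and 19.2% to 35% in stromal cells. Counted per 1000000 of all UMIs (CPM), the 30 genes together stood at 852 ± 70.1 in endothelial, 830.0 ± 63.0 in delta, 811 ± 80.9 in beta, 791 ± 89.5 in stromal, 659 ± 47.1 in macrophage and 530.4 ± 38.1 in alpha cells (mean ± SD, n = 5 mice). With 7 hormone genes (Ins1, Ins2, Iapp, Gcg, Sst, Ppy, Pyy) left out of the total, beta cells moved to the top at 2637 ± 130.3 per 1000000 non-hormone UMIs (non-hormone CPM). Delta cells followed at 1182 ± 87.6, then stromal (1147 ± 127), alpha (963 ± 54.9), macrophage (875 ± 92.5) and endothelial cells (871 ± 66.3). On this second scale the 5 beta values (2549 to 2864) lay above every other value, the highest of which was 1272 in the stromal cells of chow mouse 3. The delta and stromal ranges overlapped, as did the alpha, macrophage and endothelial ranges. By gene, 19 of the 30 were highest in beta cells by non-hormone CPM, against 5 of 30 by CPM of all UMIs, where 13 were highest in endothelial cells.

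**Figure D1:**
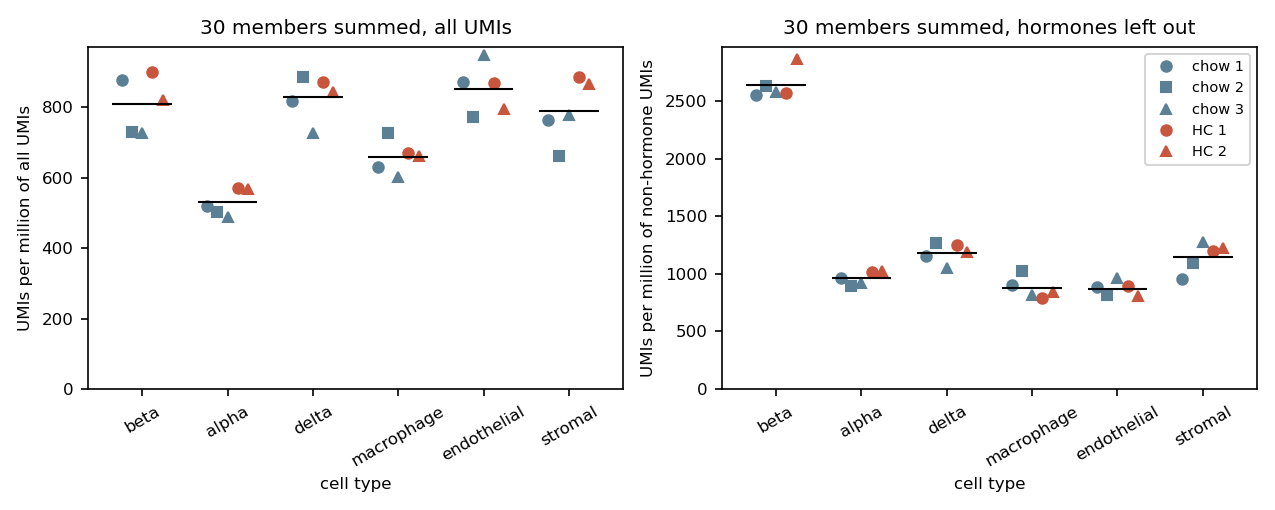
The summed level of the 30 genes per mouse in the 6 cell types, in CPM of all UMIs (left) and non-hormone CPM (right). Each point is 1 mouse (circles FUN, squares and triangles SKY, blue chow, red HC) and each line the mean of 5 mice. Beta cells lie within the other types on the left and above them on the right.

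Part of the insulin in macrophage and stromal cells came with single barcodes. Of 470 macrophages 54 (11.5%) and of 338 stromal cells 52 (15.4%) had at least 10% insulin UMIs, against 70 of 4907 alpha, 47 of 2307 delta and 10 of 824 endothelial cells. The sum of the 30 genes without these barcodes was 626 ± 112 non-hormone CPM in macrophages and 832 ± 108 in stromal cells, both lower than with them. Values of these 2 types are therefore given with and without the insulin-rich barcodes where the difference matters. The levels that follow are non-hormone CPM, and they compare 1 gene between cell types or mice. The reads come from transcript ends, so levels of different genes are not ranked against each other.

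**Figure D2:**
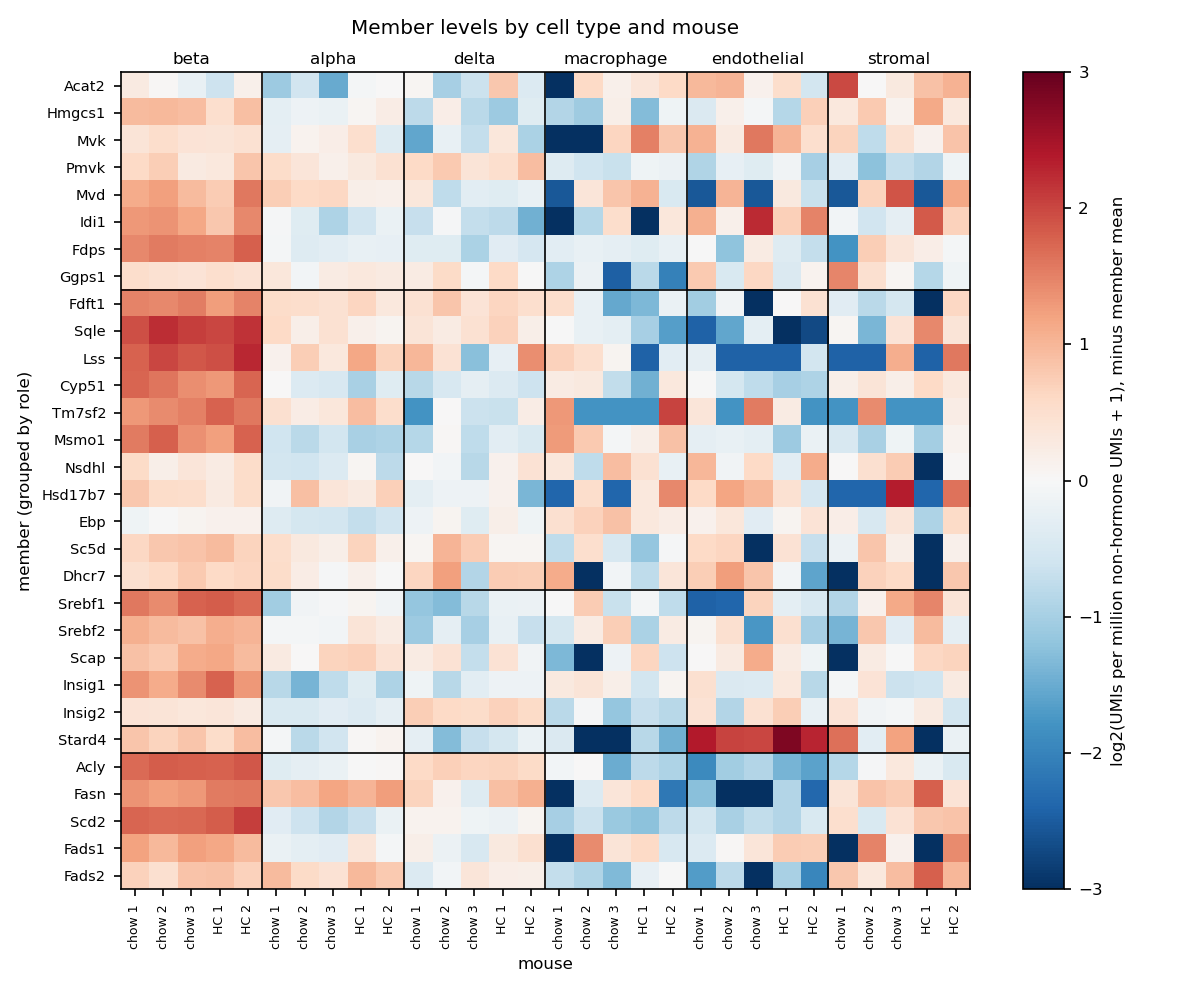
Level of each of the 30 genes in each cell type and mouse, as log2(non-hormone CPM + 1) minus the gene's mean over the 30 columns, with colours capped at ±3. Horizontal lines separate the roles (mevalonate arm, sterol arm, regulators, Stard4, fatty acid arm). The beta columns are red for most genes and Stard4 is red in endothelial cells. The macrophage, endothelial and stromal columns vary from mouse to mouse.

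Alpha cells, which secrete glucagon, carried less of these transcripts than beta cells. Of the 25 genes that passed the low-count filter, 18 were lower and 0 higher in alpha than in beta cells (edgeR quasi-likelihood test on counts summed per mouse with the mouse as block, Benjamini-Hochberg adjusted p under 0.05). Among all 9837 genes tested, 27.3% were lower and 31.4% higher. Scaled by all UMIs, 8 of the 25 were higher and 10 lower, and 91.1% of the calls of all genes were higher. All other test values here are under TMM scaling, which centres each comparison on the typical gene. The median log2 difference of the 25 genes was -0.73, beside 0.042 over all genes. Every one of the 5 regulators was lower, as were Stard4, 6 of 8 sterol arm genes tested, 3 of 6 mevalonate genes and 3 of 5 fatty acid genes. Acat2, Mvd, Lss, Tm7sf2 and Hsd17b7 were below the filter.

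The largest differences between alpha and beta cells were in Msmo1, Scd2, Insig1 and Cyp51. Msmo1 encodes an oxidase that removes methyl groups from sterol intermediates. Its level was 101, 121 and 89.4 in chow mice 1, 2 and 3 and 80.4 and 118 in HC mice 1 and 2 in beta cells, and 22.2, 18.9 and 22.8 on chow and 16.9 and 17.4 on HC in alpha cells, so the cell types did not overlap. The log2 difference was -2.20 ± 0.105 (SE, edgeR adjusted p = 1.75e-36). Scd2 encodes a stearoyl-CoA desaturase, which makes monounsaturated fatty acids. It stood at 313, 303 and 306 on chow and 329 and 390.2 on HC in beta cells and at 72.9, 59.7 and 49.7 on chow and 56.3 and 80.0 on HC in alpha cells, a log2 difference of -2.18 ± 0.0774 (edgeR adjusted p = 3.08e-47). Insig1, the sterol-sensing anchor that is itself a target of the pathway, was at 65.1, 54.6 and 68.3 on chow and 86.8 and 62.5 on HC in beta and at 13.5, 8.78 and 14.3 on chow and 18.9 and 12.7 on HC in alpha cells, again without overlap. Its log2 difference was -2.11 ± 0.115 (edgeR adjusted p = 2.59e-32), and that of the lanosterol demethylase gene Cyp51 was -1.85 ± 0.100 (edgeR adjusted p = 2.01e-32).

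The 2 transcription factor genes differed by unequal amounts. Srebf1, whose product favours fatty acid genes, was at 70.9, 63.3 and 81.1 on chow and 83.1 and 76.2 on HC in beta cells and at 10.6, 21.1 and 22.3 on chow and 24.5 and 21.4 on HC in alpha cells. Its log2 difference was -1.71 ± 0.112 (edgeR adjusted p = 1.98e-26). Srebf2, whose product favours sterol genes, was at 70.2, 64.9 and 61.7 on chow and 71.0 and 67.6 on HC in beta and 31.9, 31.6 and 31.4 on chow and 43.4 and 39.2 on HC in alpha cells, a log2 difference of -0.72 ± 0.100 (edgeR adjusted p = 6.01e-10). For both genes the lowest beta mouse lay above the highest alpha mouse. Acly, which cleaves citrate to acetyl-CoA and so feeds both arms, was at 784, 847 and 831 on chow and 812 and 877 on HC in beta against 184, 199.7 and 208 on chow and 239 and 245 on HC in alpha cells (log2 difference -1.76 ± 0.0808, edgeR adjusted p = 4.67e-26). Fasn, the fatty acid synthase gene, was at 49.3 ± 5.68 in beta and 37.9 ± 4.90 in alpha cells and did not pass the test (log2 difference -0.20 ± 0.104, edgeR adjusted p = 0.0881). The desaturase gene Fads2 also did not pass (log2 difference 0.23 ± 0.124, edgeR adjusted p = 0.108).

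Of the sterol arm, 6 of 8 tested genes were lower in alpha cells. Its 11 genes summed to 529 ± 35.6 in beta, 213 ± 15 in alpha and 248 ± 32.2 in delta cells (mean ± SD, n = 5). Beside Msmo1 and Cyp51, the genes that passed in alpha minus beta cells were (log2 difference ± SE) the squalene synthase gene Fdft1 (-0.77 ± 0.115), the squalene epoxidase gene Sqle (-1.64 ± 0.100), the sterol dehydrogenase gene Nsdhl (-0.67 ± 0.182) and the sterol isomerase gene Ebp (-0.42 ± 0.0871). Sqle was at 89.8, 109.5 and 99.5 on chow and 94.6 and 107 on HC in beta and at 35.2, 25.9 and 32.0 on chow and 25.5 and 24.2 on HC in alpha cells, with no overlap. The late-step genes Sc5d (-0.23 ± 0.138) and Dhcr7 (-0.27 ± 0.178), whose product finishes cholesterol, did not pass. Of the genes below the filter, the lanosterol synthase gene Lss was at 20.1 ± 2.76 in beta and 7.38 ± 2.36 in alpha cells, Tm7sf2 at 8.99 ± 1.28 and 3.99 ± 0.984, and Hsd17b7 at 6.66 ± 1.04 and 6.24 ± 1.93.

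In the mevalonate arm 3 of 6 tested genes were lower in alpha cells. The 8 genes summed to 507 ± 49.4 in beta, 249 ± 16.9 in alpha and 241 ± 32.7 in delta cells. Fdps, the gene of the enzyme that makes farnesyl diphosphate, was at 232, 251 and 242 on chow and 239 and 297 on HC in beta against 81.6, 64.1 and 67.9 on chow and 72.5 and 71.3 on HC in alpha cells (log2 difference -1.63 ± 0.0821). Idi1 (-1.49 ± 0.158) and Hmgcs1 (-0.73 ± 0.108) were also lower, while the kinase genes Mvk (-0.22 ± 0.158) and Pmvk (-0.013 ± 0.0799) and Ggps1 (-0.059 ± 0.104) did not pass. Acat2, below the filter, was at 8.02 ± 2.02 in beta and 5.44 ± 2.69 in alpha cells, and Mvd at 12 ± 2.88 and 7.15 ± 1.46. The remaining regulators Insig2 (-0.58 ± 0.0915) and Scap (-0.37 ± 0.112), the escort gene of the SREBP factors, were lower in alpha cells by less than Insig1 and Srebf1, and the desaturase gene Fads1 stood at -1.03 ± 0.148.

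Promoters were read for genes that differed together between cell types, and 6 are shown. Msmo1, Insig1 and Cyp51 had large differences between alpha and beta cells, Idi1 between delta and beta cells, and Hmgcs1 and Fasn recur in the diet comparison. RefSeq windows (GRCm38.p6) from 250 bases before to 50 bases after a start site were matched for 24 of the 30 genes. Each sequence gives the 250 bases before the start, 5′ to 3′ on the gene's strand, with capitals for CCAAT or its reverse complement ATTGG and for a match to TCACNCCAC.
Msmo1 (chr8:64733579-64733828, minus strand): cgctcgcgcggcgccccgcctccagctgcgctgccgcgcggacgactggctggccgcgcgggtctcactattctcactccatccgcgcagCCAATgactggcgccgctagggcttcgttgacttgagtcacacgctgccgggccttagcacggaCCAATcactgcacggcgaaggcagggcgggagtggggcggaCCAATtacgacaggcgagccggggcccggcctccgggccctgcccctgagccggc
Insig1 (chr5:28071162-28071411, plus strand): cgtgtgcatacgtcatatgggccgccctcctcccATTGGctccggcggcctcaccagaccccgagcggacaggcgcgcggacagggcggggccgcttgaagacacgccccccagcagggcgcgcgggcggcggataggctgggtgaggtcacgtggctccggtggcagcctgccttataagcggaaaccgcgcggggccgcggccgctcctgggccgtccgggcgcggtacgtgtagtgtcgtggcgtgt
Cyp51 (chr5:4104698-4104947, minus strand): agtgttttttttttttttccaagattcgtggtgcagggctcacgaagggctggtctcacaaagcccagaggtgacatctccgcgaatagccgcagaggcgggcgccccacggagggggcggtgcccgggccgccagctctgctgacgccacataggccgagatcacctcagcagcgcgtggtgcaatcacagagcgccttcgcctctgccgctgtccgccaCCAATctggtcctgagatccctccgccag
Idi1 (chr13:8885356-8885605, plus strand): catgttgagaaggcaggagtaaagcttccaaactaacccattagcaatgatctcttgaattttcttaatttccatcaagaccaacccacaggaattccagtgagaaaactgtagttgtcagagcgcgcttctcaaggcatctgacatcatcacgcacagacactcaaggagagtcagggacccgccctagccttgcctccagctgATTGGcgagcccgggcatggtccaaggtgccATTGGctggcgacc
Hmgcs1 (chr13:119690101-119690350, plus strand): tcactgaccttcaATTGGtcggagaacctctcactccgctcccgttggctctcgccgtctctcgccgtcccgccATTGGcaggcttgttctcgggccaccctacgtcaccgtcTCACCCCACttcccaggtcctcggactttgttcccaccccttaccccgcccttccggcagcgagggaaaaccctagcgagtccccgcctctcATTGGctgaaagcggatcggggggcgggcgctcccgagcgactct
Fasn (chr11:120824548-120824797, minus strand): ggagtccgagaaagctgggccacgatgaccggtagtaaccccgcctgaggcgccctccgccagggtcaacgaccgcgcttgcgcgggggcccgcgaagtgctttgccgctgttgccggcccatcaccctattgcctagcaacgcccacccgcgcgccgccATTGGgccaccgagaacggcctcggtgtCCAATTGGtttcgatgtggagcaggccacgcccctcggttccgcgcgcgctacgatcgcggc

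CCAAT is the letter pattern bound by the factor NF-Y, a partner of the SREBP factors at many promoters. On either strand of the full windows, CCAAT was found in 21 of 24 genes (87.5%), against 41.1% of the 27025 genes in the RefSeq table. GGGCGG, the pattern of Sp1, was likewise found in 21 of 24 genes (87.5%) against 38.2%. CACGTG, an E-box, was found in 5 of 24 genes (20.8%) against 8.09%. TCACNCCAC, a loose form of the sterol regulatory element, was found in 1 of 24, Hmgcs1, at 137 bases before the start (4.17% against 1.44%). None of these patterns contains another, though neighbouring matches can overlap, as CCAAT and ATTGG do in Fasn. A match is a run of letters and not a measured binding site, and promoters of active genes in general were not used as a background.

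Under TMM scaling, delta cells, which secrete somatostatin, were lower than beta cells in most of these genes. Of the 25 genes tested, 18 were lower and 1 higher in delta than in beta cells, where 24.6% and 26.4% of all genes were lower and higher. Their median log2 difference was -1.02, beside 0.0061 over all genes. The 5 fatty acid genes were lower, as were 4 of 5 regulators, 4 of 6 mevalonate genes, 4 of 8 sterol arm genes and Stard4. Srebf1 had the largest difference, with 9.70, 8.65 and 12.3 on chow and 20.0 and 20.2 on HC in delta cells and a log2 difference of -2.38 ± 0.165 (edgeR adjusted p = 8.62e-25). Cyp51 differed by -2.14 ± 0.135, Fdps, which makes farnesyl diphosphate, by -2.06 ± 0.103 and Idi1, the isopentenyl diphosphate isomerase gene, by -2.05 ± 0.232. Scd2 (-1.84), Insig1 (-1.73) and Srebf2 (-1.66) were lower too, using edgeR adjusted p of 7.63e-37, 3.28e-20 and 9.81e-18. The higher gene was Insig2, the second INSIG gene, at 90.6, 81.6 and 78.9 on chow and 87.0 and 80.8 on HC in delta and 71.7, 70.9 and 68.7 on chow and 69.7 and 65.3 on HC in beta cells, with a log2 difference of 0.27 ± 0.0998 (edgeR adjusted p = 0.0166). This small difference lost its call when chow mouse 1 or HC mouse 2 was left out. Scaled by all UMIs, 8 of the 25 genes were higher and 9 lower than in beta cells, and 96.7% of the calls of all genes were higher.

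Alpha and delta cells differed from each other in fewer of the genes. Of the 25 genes, 8 were higher and 4 lower in alpha than in delta cells, where 19.3% and 18.3% of all genes were called, and the median difference was 0.13 beside 0.018 over all genes. Srebf2 was higher in alpha cells by 0.94 ± 0.175 on the log2 scale (edgeR adjusted p = 3.79e-06), Fads2 by 0.92 ± 0.201 (edgeR adjusted p = 7.41e-05), the mevalonate kinase gene Mvk by 0.80 ± 0.268 (edgeR adjusted p = 0.0118) and Hmgcs1, the gene of HMG-CoA synthase, by 0.68 ± 0.184 (edgeR adjusted p = 0.00167). Srebf1 was higher in alpha cells as well (0.67 ± 0.216, edgeR adjusted p = 0.00866). Delta cells had more Insig2 (-0.85), Acly (-0.61), Scd2 (-0.35) and Ebp (-0.31), the last a sterol isomerase gene, with alpha minus delta values in parentheses. Insig1 did not pass (-0.38 ± 0.196, edgeR adjusted p = 0.121). Acly was at 366, 394 and 377 on chow and 381 and 358 on HC in delta cells, above the 5 alpha and below the 5 beta values.

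**Figure D3:**
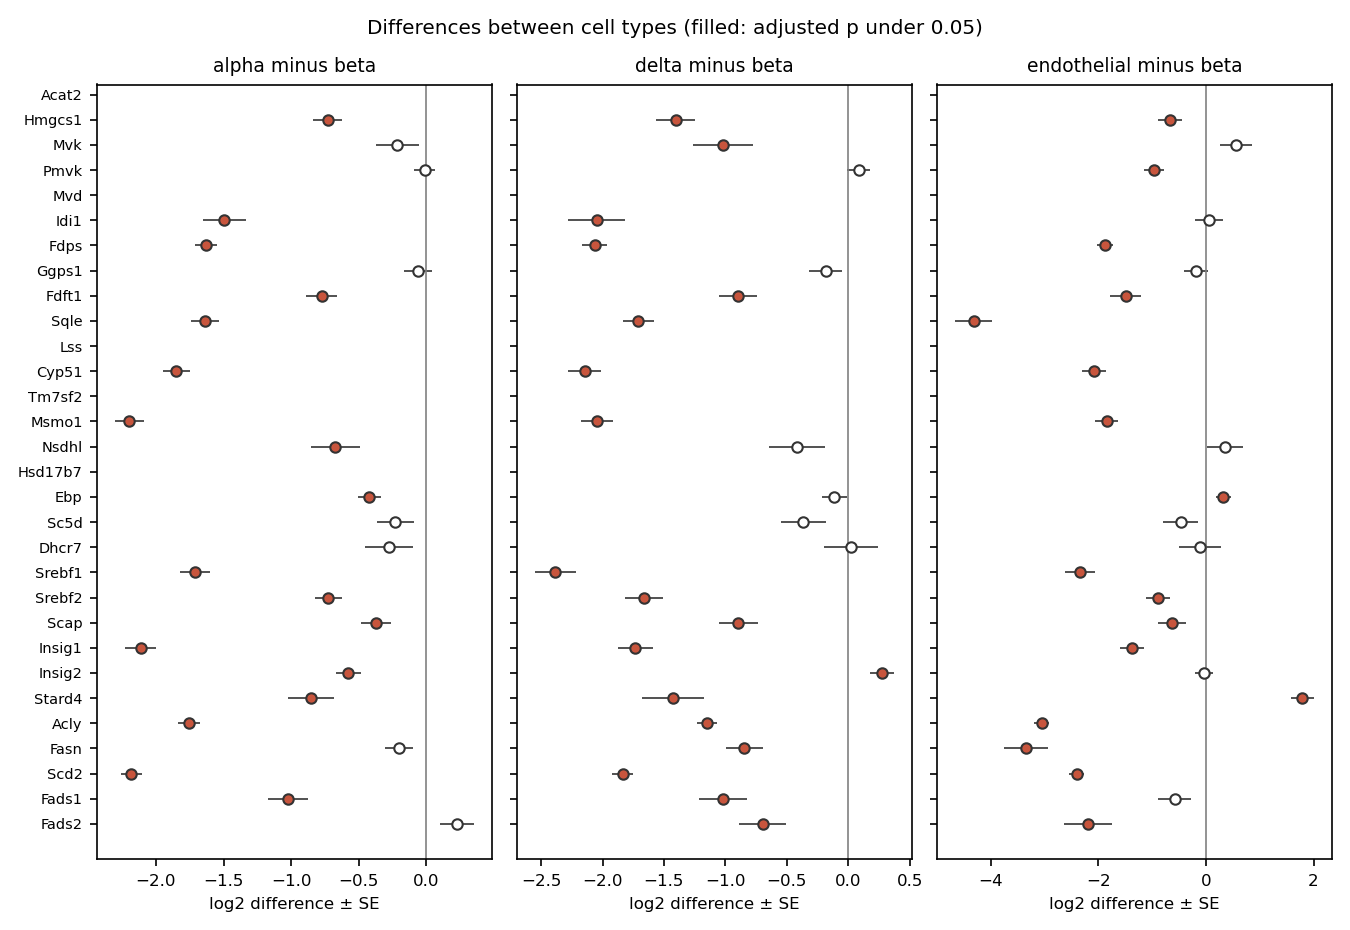
Log2 difference of each tested gene in alpha, delta and endothelial cells against beta cells, with bars for the SE, from counts summed per mouse (5 mice). Filled points passed the test at an adjusted p under 0.05. Most filled points lie left of 0, with Insig2 in delta cells and Stard4 and Ebp in endothelial cells to the right.

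The direction of these calls depends on the scale, because TMM scaling centres each comparison on the typical gene while the hormone load of the cell types differs. Scaled by all UMIs, the median of all genes moved to 0.69 for alpha minus beta, 1.19 for delta minus beta and -0.51 for alpha minus delta. The calls among the 25 genes then became 8 higher and 10 lower, 8 higher and 9 lower, and 0 higher and 12 lower. The share of higher calls among all calls of all genes moved from 53.4%, 51.8% and 51.4% to 91.1%, 96.7% and 7.86%. Relative to the median of all genes, the median of the 25 genes was -0.77 and -0.76, -1.03 and -1.03, and 0.11 and 0.093 under TMM and under scaling by all UMIs. Called genes whose sign turned were Insig2, Scap and Ebp for alpha minus beta, Mvk, Scap, Acly, Fasn, Fdft1, Fads2 and Fads1 for delta minus beta and Fdps and Scap for alpha minus delta. A change of scale shifts all genes of a comparison by nearly the same amount, so it could hardly move a gene relative to the median gene. On either scale 24 of 25 genes lay below the median gene in alpha minus beta and 22 of 25 in delta minus beta. The second scale is therefore no separate check of these relative values. As sums over cells, these values cannot separate fewer transcribing cells from less RNA per cell.

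Within beta cells the level averaged over mice varied little between clusters. The 5 beta clusters held 1099 to 3311 cells each, and the sum of the 30 genes was 2548 to 2673 non-hormone CPM as means of 5 mice. Single mice differed in this spread. The clusters ran from 2679 to 3010 in HC mouse 2 and from 2521 to 2611 in HC mouse 1. Srebf1 ranged from 66.9 to 82.5 over the clusters (means of 5 mice) and Acly from 793 to 845. Hmgcs1 was at 66.0 ± 24.3 (SD, n = 5) in the cluster led by Car15, Npy and Gad1 and at 45.1 ± 5.52 in the one led by Npy and Ins1. These are descriptions, with no test between clusters.

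Macrophages, the resident immune cells of the islet, were under TMM scaling lower than beta cells in 15 of the 25 genes and higher in 1, against 24% and 26.7% of all genes. The higher gene was Ebp, at 129, 151 and 173 on chow and 115 and 109 on HC against 84.8, 92.0 and 98.8 on chow and 102 and 102 on HC in beta cells (log2 difference 0.98 ± 0.159, edgeR adjusted p = 9.46e-08). Among the lower genes, Scd2 differed by -2.30 ± 0.168, the squalene epoxidase gene Sqle by -2.30 ± 0.307, Stard4 by -2.13 ± 0.656 and Acly by -1.95 ± 0.137. Without the insulin-rich barcodes these differences were -4.03, -3.05, -3.42 and -3.21, all larger, while Ebp kept 0.99. The 8 beta marker genes took 110002 to 284400.0 CPM in macrophages. Srebf1 (-1.40, edgeR adjusted p = 3.59e-05) and Insig1 (-0.84, edgeR adjusted p = 0.00456) were lower as well, and Srebf2 (-0.37) had an edgeR adjusted p of 0.225.

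Under TMM scaling, endothelial cells were lower than beta cells in most of these genes and higher in Stard4. Of the 25 genes, 15 were lower and 2 higher than in beta cells, where 32.5% and 35.1% of all genes were called. Scaled by all UMIs, 14 were higher and 7 lower, and 87.8% of the calls of all genes were then higher. Stard4, which encodes a carrier that moves cholesterol between membranes, was at 59.2, 46.7 and 46.0 on chow and 80.5 and 56.2 on HC in endothelial cells, from 5 to 26 UMIs per mouse. It was at 19.8, 17.5 and 19.6 on chow and 16.2 and 21.3 on HC in beta and 10.1, 5.71 and 6.85 on chow and 10.9 and 11.5 on HC in alpha cells, so every endothelial value exceeded every value of these endocrine types. The log2 difference from beta cells was 1.79 ± 0.218 (edgeR adjusted p = 2.93e-12), and from macrophages, where Stard4 had 0 to 1 UMIs per mouse, 3.92 ± 0.565 (edgeR adjusted p = 3.57e-09). The low-count filter took all 6 types together, and Stard4 passed it mainly through its endothelial values. By CPM of all UMIs these were 44.4 to 78.4, beside 4.87 to 6.81 in beta, 3.19 to 6.39 in alpha and 2.60 to 6.44 in delta cells. The Stard4 calls therefore describe a gene that was tested because it is high in endothelial cells. Ebp was the other higher gene under TMM scaling (0.33 ± 0.144, edgeR adjusted p = 0.0399), and its call was lost under DESeq2 and other alternatives. Insig1 (-1.38), Srebf1 (-2.35) and Srebf2 (-0.89) were lower under TMM scaling, while scaled by all UMIs Insig1 was at 0.10 and Srebf2 at 0.59. On the lower side, Sqle differed by -4.32 ± 0.340, Fasn by -3.34 ± 0.407, Acly by -3.06 ± 0.137 and Scd2 by -2.40 ± 0.138. Endothelial cells had 177 ± 20.3 non-hormone CPM of the 5 fatty acid genes, beside 1262 ± 65.3 in beta cells (SD, n = 5), while the 8 mevalonate genes were at 253 ± 53.9 and 507 ± 49.4. In endothelial against macrophage cells 3 genes were higher (Stard4, Idi1, Ggps1) and 5 lower, beside 20.9% and 24.1% of all genes. Idi1 (1.18) and Ggps1, the geranylgeranyl diphosphate synthase gene (1.05), both had an edgeR adjusted p of 0.0483, close to the threshold. Without the insulin-rich barcodes both lost their call (edgeR adjusted p = 0.0789 and 0.0788). Of the lower genes, Acly and Sqle lost theirs then, Acly moving from -1.10 to -0.025, and Scd2 turned from -0.10, not past the test, to a higher 1.53 ± 0.410 (edgeR adjusted p = 0.00118).

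Stromal cells, the collagen-producing cells, were lower than beta cells in 11 of the 25 genes and higher in 0, beside 21.8% and 24.3% of all genes. Acly differed by -1.85 ± 0.135, Msmo1 by -1.72 ± 0.257, Sqle by -1.65 ± 0.266 and the squalene synthase gene Fdft1 by -1.41 ± 0.366. With the insulin-rich barcodes left out, Acly stood at -3.49, Msmo1 at -2.85 and Sqle at -2.98, and Ebp became higher (0.49, edgeR adjusted p = 0.0322). Insig1 (-1.24), Scd2 (-1.21), Srebf1 (-0.97) and Srebf2 (-0.87) were lower under TMM scaling, while scaled by all UMIs Srebf1 was at 0.068 and Srebf2 at 0.18. Called genes whose sign turned on that scale were Insig2 in macrophages, Pmvk, Insig1, Scap, Hmgcs1 and Srebf2 in endothelial and Pmvk, Srebf1 and Srebf2 in stromal cells, and Ebp in endothelial minus macrophage cells. The 8 beta marker genes took 199164 to 364275 CPM in stromal cells. Scaled by all UMIs, the calls against beta cells were 3 higher and 4 lower in macrophages, 14 and 7 in endothelial and 7 and 2 in stromal cells, and the median of all genes moved to 0.76, 1.5 and 0.98. The share of higher calls among all calls then moved from 52.6%, 51.9% and 52.7% to 89.0%, 87.8% and 94.4%, and for endothelial minus macrophage from 46.4% to 76.0%. Relative to the median of all genes, the 25 genes had medians of -0.80 and -0.79 in macrophages, -0.90 and -0.91 in endothelial and -0.55 and -0.54 in stromal cells on the 2 scales. Here too the change of scale could hardly move these relative values.

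The 40 other lipid genes were listed in 3 groups, with calls under TMM scaling only. Among all genes, 27.3% were lower and 31.4% higher in alpha than in beta cells, and 24.6% and 26.4% in delta cells. The shares were 24% and 26.7% in macrophage, 32.5% and 35.1% in endothelial and 21.8% and 24.3% in stromal cells. Several counts that follow lie near these shares. Of 16 tested genes of the wider fatty acid pathway (elongases, acyl-CoA synthetases, Acaca and others), 9 were lower and 3 higher in alpha than in beta cells, and 11 were lower and 2 higher in delta cells. Elovl5, a fatty acid elongase gene, was at -2.0 in alpha minus beta cells on the log2 scale. Mid1ip1, which encodes an activator of acetyl-CoA carboxylase, was higher in alpha (1.62) and delta cells (1.11). Acaca, that carboxylase's own gene, was lower in delta (-0.91) and endothelial cells (-1.95). Of 9 tested genes of sterol efflux, storage and the liver X receptors, 5 were lower and 2 higher in alpha than in beta cells, with Nr1h3, a liver X receptor gene, at -3.37. In macrophages 6 of these 9 were higher than in beta cells and 1 was lower. The higher ones included the lysosomal lipase gene Lipa (4.81), Mylip, whose product degrades lipoprotein receptors (3.44), and Npc2, a lysosomal sterol carrier gene (2.55). Stromal cells likewise had 6 higher and 2 lower, and endothelial cells 4 higher and 3 lower. Of 9 tested genes of SREBP processing and other targets, 4 were lower and 1 higher in alpha, 3 and 1 in delta, 4 and 1 in macrophage, 5 and 1 in endothelial, and 2 and 0 in stromal cells against beta cells.

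**Figure D4:**
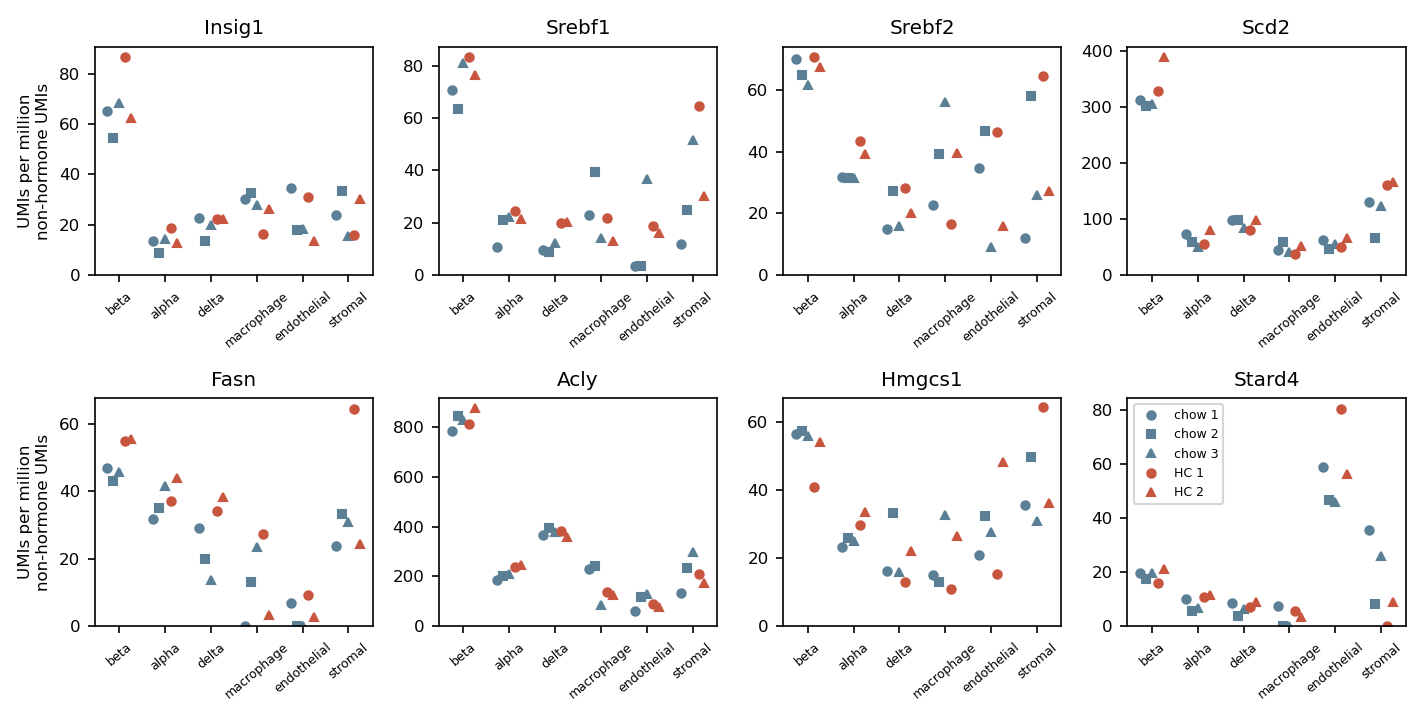
Non-hormone CPM of 8 of the genes per mouse in the 6 cell types (circles FUN, squares and triangles SKY, blue chow, red HC). Insig1, Srebf1, Scd2 and Acly are highest in beta cells, and Stard4 in endothelial cells. HC and chow points overlap in most types, with both HC points above the chow points in some, such as Fasn in beta and delta, Scd2 in beta, Acly in alpha and Srebf1 in delta cells.

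The HC diet replaces intact dietary protein with a hydrolysate of casein, and the comparison asks which transcripts of the islet cells differ from chow. None of the 30 genes passed the test in any cell type. Tested were 30 in beta, 29 in alpha (all but Tm7sf2), 23 in delta, 10 in endothelial, 4 in macrophage and 4 in stromal cells, and 0 were called by edgeR or by DESeq2 (edgeR, unadjusted p under 0.05: 2 in beta, 2 in alpha, 2 in delta and 0 in the others; DESeq2, 0 in each type). The unadjusted counts have no share of all genes beside them and are not read as a result. Few genes of any kind were called after adjustment. In beta cells 0.00838% of all genes were higher and 0% lower, in alpha cells 0% and 0.0466%, in delta cells 0% and 0.0219%, in macrophages 0% and 0.0763%, in endothelial cells 0.0188% and 0.0188%, and in stromal cells 0% and 0%. In simulated counts of the same depth with 100 genes changed by each fold, the test found 68% of the 2-fold and 98% of the 4-fold changes for beta cells, and 64% and 93% for alpha, 59% and 90% for delta, 54% and 94% for macrophage, 49% and 78% for endothelial and 36% and 79% for stromal cells. Each gene was simulated with a dispersion of 0.02 and no difference between prefixes, unlike the real mice. The shares are therefore not the power of the test in these data. Unchanged genes made up 4 of 170 calls in beta, 13 of 170 in alpha and 2 of 151 in delta cells. They made up 14 of 162 in macrophage, 6 of 133 in endothelial and 12 of 127 in stromal cells.

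In beta cells the median log2 difference of the 30 genes, HC minus chow, was 0.054 (all genes 0.00046), and 19 of 30 were above 0. The smallest p belonged to Fasn. It was at 47.0, 43.0 and 45.7 in chow mice 1, 2 and 3 and 55.0 and 55.6 in HC mice 1 and 2, so the 2 HC values exceeded the 3 chow values, with a log2 difference of 0.31 ± 0.110 (SE), unadjusted p = 0.0146, edgeR adjusted p = 0.935. Scd2 was at 313, 303 and 306 in chow mice 1, 2 and 3 and 329 and 390.2 in HC mice 1 and 2, also without overlap (0.24 ± 0.0988 (SE), unadjusted p = 0.0277, edgeR adjusted p = 0.947). Both genes belong to the fatty acid arm, whose other genes stood at 0.059 ± 0.0948 (Acly), 0.12 ± 0.155 (Fads2) and -0.065 ± 0.136 (Fads1). Insig1 was at 65.1, 54.6 and 68.3 in chow mice 1, 2 and 3 and 86.8 and 62.5 in HC mice 1 and 2, where HC mouse 1 was high and HC mouse 2 lay among the chow mice (0.27 ± 0.144 (SE), unadjusted p = 0.0832, edgeR adjusted p = 0.947). Hmgcs1 had the smallest p on the lower side, at 56.5, 57.4 and 55.9 in chow mice 1, 2 and 3 and 41.0 and 54.2 in HC mice 1 and 2 (-0.23 ± 0.131 (SE), unadjusted p = 0.0978, edgeR adjusted p = 0.947). HC mouse 1 alone was far below the chow mice there. Hsd17b7 (-0.23 ± 0.245) and Acat2 (-0.23 ± 0.277) followed, while Srebf1 (0.17 ± 0.119) and Srebf2 (0.096 ± 0.109) were within 2 SE of 0.

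Diet was also compared among mice of one prefix only, with no test. FUN held 1 HC and 1 chow mouse, and SKY held 1 HC and 2 chow mice. In each prefix the HC mouse was also the younger, at 7 against 8 weeks in FUN and 9 against 10 weeks in SKY. In beta cells Fasn was 0.24 within FUN and 0.35 within SKY, Scd2 0.080 within FUN and 0.38 within SKY, Insig1 0.42 within FUN and 0.053 within SKY and Hmgcs1 -0.45 within FUN and -0.039 within SKY (log2, HC minus chow). Of the 30 genes, 14 were higher in HC in both prefixes, 3 were lower in both and 13 differed in sign, where 25.9% of all genes were higher in both and 25.9% lower in both. By non-hormone CPM, the HC values exceeded every chow value for 4 genes (Ebp, Fasn, Scd2, Tm7sf2) and lay under every one for 1 (Hmgcs1), beside 8.67% and 12.5% of all genes. By CPM of all UMIs the counts were 5 and 1, beside 5.87% and 3.22%. With prefix as a term in the fit over all 5 mice, 0 of the 30 genes passed in any cell type (edgeR, unadjusted p under 0.05: 3 in beta, 2 in alpha, 2 in delta and 0 in the others, counts not read as a result). Beta-cell Fasn then stood at 0.30 ± 0.113 (edgeR adjusted p = 0.790) and Scd2 at 0.26 ± 0.0871 (edgeR adjusted p = 0.733), alpha-cell Acat2 at 1.09 ± 0.421 (edgeR adjusted p = 0.671) and Acly at 0.27 ± 0.104 (edgeR adjusted p = 0.671), and delta-cell Fasn at 0.77 ± 0.297 (edgeR adjusted p = 1.000) and Srebf1 at 0.99 ± 0.402 (edgeR adjusted p = 1.000). Age followed exactly from prefix and diet in these 5 mice. Age, prefix and diet could therefore not be fitted together, and their contributions cannot be told apart.

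**Figure D5:**
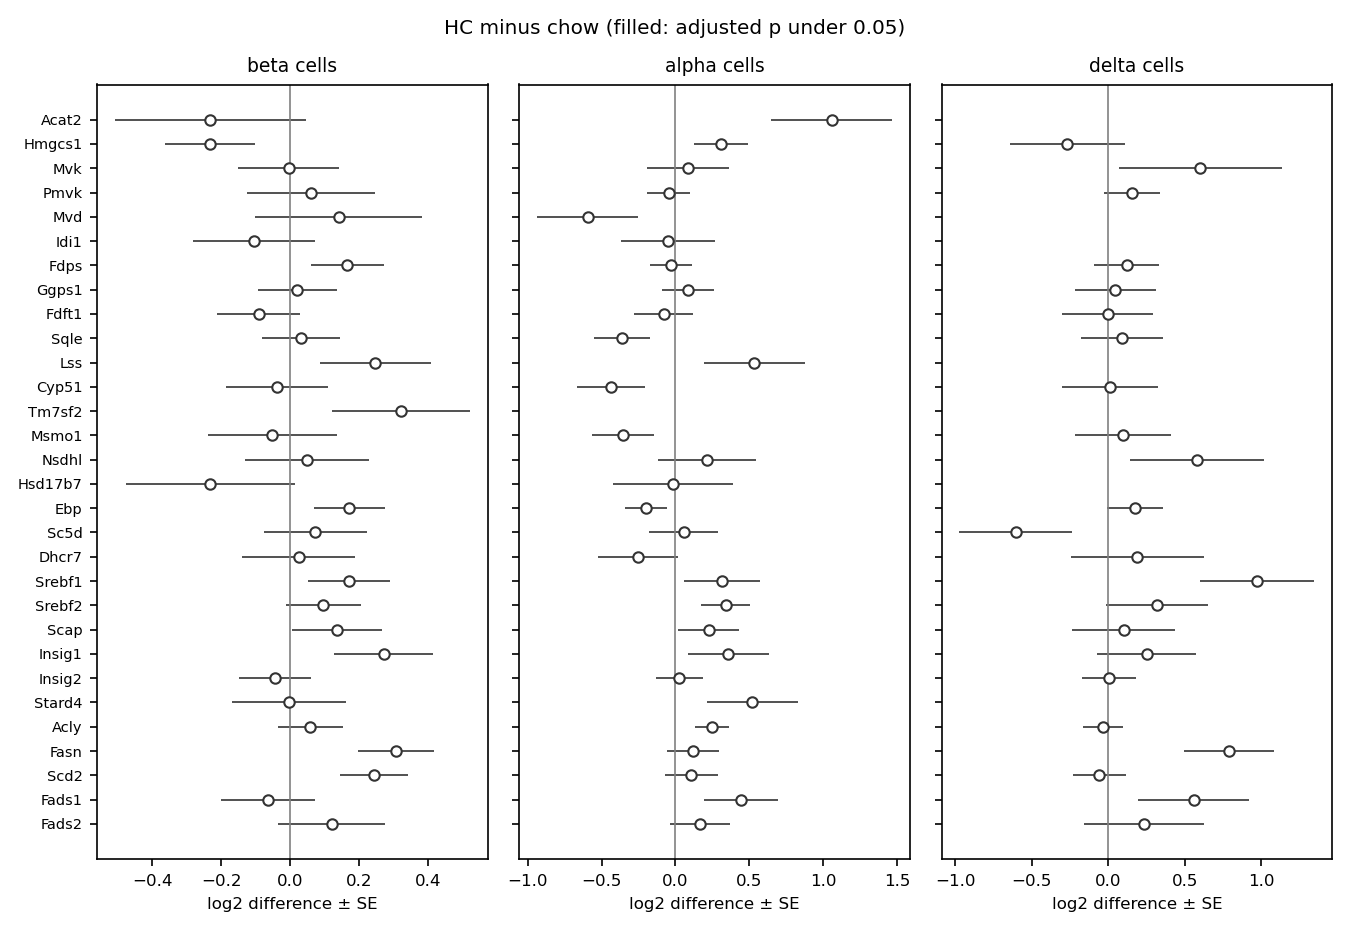
Log2 difference of each tested gene, HC (2 mice) minus chow (3 mice), in beta, alpha and delta cells, with bars for the SE. Open points did not pass the test, and no point is filled. The horizontal scales differ: Fasn in beta cells is at 0.31, while Acat2 in alpha cells reaches 1.06.

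In alpha cells the median of 29 genes was 0.085 (all genes -0.0012), with 18 of 29 above 0. Acat2, the gene of the cytosolic thiolase that starts the mevalonate arm, had the smallest p. It had 7, 12 and 4 UMIs in chow mice 1, 2 and 3 and 24 and 21 in HC mice 1 and 2. Its level was 3.38, 5.27 and 2.28 in chow mice 1, 2 and 3 and 7.95 and 8.32 in HC mice 1 and 2, with a log2 difference of 1.06 ± 0.408 (SE), unadjusted p = 0.0186, edgeR adjusted p = 0.700. These counts are low, and Acat2 has a neighbouring paralog, Acat3, with which reads could be shared, so its level is uncertain. Acly was at 184, 199.7 and 208 in chow mice 1, 2 and 3 and 239 and 245 in HC mice 1 and 2, both HC mice above the chow mice (0.25 ± 0.117 (SE), unadjusted p = 0.0489, edgeR adjusted p = 0.751). Srebf2 was at 31.9, 31.6 and 31.4 in chow mice 1, 2 and 3 and 43.4 and 39.2 in HC mice 1 and 2, again without overlap (0.34 ± 0.164 (SE), unadjusted p = 0.0536, edgeR adjusted p = 0.751). On the lower side Cyp51 (-0.44 ± 0.231), Sqle (-0.36 ± 0.191) and Mvd, the mevalonate diphosphate decarboxylase gene (-0.59 ± 0.340), had the smallest p, from 0.0752 to 0.0977 unadjusted. The HC and chow mice overlapped for Cyp51, where HC mouse 1 was lowest at 15.6. The regulators and Scd2 stood at 0.36 ± 0.273 for Insig1, 0.31 ± 0.258 for Srebf1 and 0.11 ± 0.177 for Scd2.

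Within prefixes, alpha-cell Acat2 was 1.19 within FUN and 1.02 within SKY, Acly 0.34 within FUN and 0.22 within SKY, Srebf2 0.41 within FUN and 0.27 within SKY, Sqle -0.50 within FUN and -0.30 within SKY and Cyp51 -1.06 within FUN and 0.043 within SKY. Insig1 was 0.45 within FUN and 0.12 within SKY, Srebf1 1.17 within FUN and -0.063 within SKY and Scd2 -0.40 within FUN and 0.49 within SKY. The Cyp51 and Srebf1 differences were near 0 in SKY, and the sign of Scd2 differed between the prefixes. Of 29 genes, 11 were higher in both prefixes, 5 lower in both and 13 differed in sign, beside 26.6% and 26.7% of all genes. Non-overlapping levels by non-hormone CPM were found for 6 genes above (Acat2, Acly, Fads1, Hmgcs1, Srebf2, Stard4) and 4 below (Ebp, Msmo1, Mvd, Sqle), beside 14.8% and 7.63% of all genes. By CPM of all UMIs, 8 were above and 3 below, beside 19.6% and 5.22%. The 5 PP-cell markers differed by prefix in alpha cells, at 5815 and 8755 CPM in the FUN mice and 25069 to 42248 in the SKY mice, and their part in these values was not tested.

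Delta cells had a median of 0.12 over 23 tested genes (all genes -0.0031), with 18 of 23 above 0. Fasn was at 29.1, 19.8 and 13.6 in chow mice 1, 2 and 3 and 34.1 and 38.4 in HC mice 1 and 2 (0.79 ± 0.295 (SE), unadjusted p = 0.0134, edgeR adjusted p = 0.999). Srebf1 was at 9.70, 8.65 and 12.3 in chow mice 1, 2 and 3 and 20.0 and 20.2 in HC mice 1 and 2 (0.97 ± 0.374 (SE), unadjusted p = 0.0154, edgeR adjusted p = 0.999). For both genes, and for Fads1 (0.56 ± 0.362) and Nsdhl, the HC values exceeded every chow value, 4 genes in all and 0 below, beside 8.04% and 9.31% of all genes by non-hormone CPM. By CPM of all UMIs the counts were also 4 and 0, beside 8.42% and 8.84%. The sterol desaturase gene Sc5d had the smallest p on the lower side (-0.61 ± 0.368), with 14.0, 28.4 and 23.4 on chow and 14.1 and 14.1 on HC, so chow mouse 1 lay with the HC mice. Within prefixes Fasn was 0.23 within FUN and 1.21 within SKY, Srebf1 1.04 within FUN and 0.95 within SKY and Sc5d 0.013 within FUN and -0.85 within SKY. In delta cells 8 of 23 genes were higher in both prefixes, 1 was lower in both and 14 differed, beside 23.5% and 24.1% of all genes. Hmgcs1 (-0.27 ± 0.377), Insig1 (0.25 ± 0.323), Srebf2 (0.32 ± 0.333) and Scd2 (-0.058 ± 0.176) stood within 1 SE of 0.

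The non-endocrine cells could be tested for few of the genes. In macrophages 4 were tested (Fdps, Msmo1, Ebp, Acly), with a median of -0.23 and 1 of 4 above 0. Ebp was at 129, 151 and 173 in chow mice 1, 2 and 3 and 115 and 109 in HC mice 1 and 2 (-0.42 ± 0.285 (SE), unadjusted p = 0.167, edgeR adjusted p = 0.998). Both HC mice lay below the chow mice for Ebp, 1 gene of 4, beside 9.43% of all genes below and 7.71% above. By CPM of all UMIs the counts were 0 below and 1 above, beside 4.2% and 16.4%. The beta markers in these macrophages were at 284400.0, 256664 and 209154 in chow mice 1, 2 and 3 and 110002 and 133520.0 in HC mice 1 and 2 CPM, lower in both HC mice, and without the insulin-rich barcodes the Ebp difference was -0.31 ± 0.324. Acly was at 228, 242 and 84.2 on chow and 137 and 125 on HC and overlapped (-0.41 ± 0.394). Without those barcodes the macrophage Acly difference turned to 0.49 ± 0.477. Within prefixes Ebp was -0.12 within FUN and -0.55 within SKY and Acly -0.69 within FUN and -0.29 within SKY. In endothelial cells 10 genes were tested, with a median of 0.027 and 6 of 10 above 0, and none had non-overlapping groups, beside 8.06% above and 8.91% below (8.57% and 7.91% by CPM of all UMIs). Stard4 stood at 59.2, 46.7 and 46.0 on chow and 80.5 and 56.2 on HC (0.39 ± 0.328) and Ggps1 at 52.2, 21.6 and 46.0 on chow and 21.7 and 32.1 on HC (-0.50 ± 0.501). Within prefixes Stard4 was 0.45 within FUN and 0.27 within SKY, Ggps1 -1.24 within FUN and 0.14 within SKY and Acly 0.53 within FUN and -0.62 within SKY. In stromal cells Scd2 was at 131, 66.5 and 124 on chow and 161 and 167 on HC (0.63 ± 0.378, edgeR adjusted p = 0.999), the 1 of 4 tested genes whose groups did not overlap, beside 6.23% above and 7.98% below (9.98% and 3.79% by CPM of all UMIs, with the same counts of 1 and 0). Without the insulin-rich barcodes the Scd2 difference was 1.24 ± 0.487 (unadjusted p = 0.0258, edgeR adjusted p = 0.999), and it was 0.27 within FUN and 0.78 within SKY. The other 3 stromal genes, Ebp, Acly and Fdps, differed in sign between the prefixes. The median of the 4 stromal genes was 0.023.

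Whether the diet difference itself differed between cell types was tested as an interaction over all genes, and 0 of the 30 genes passed in alpha, delta, macrophage or endothelial cells against beta cells. The low-count filter took both cell types of a comparison together, and all 30 genes entered each test. In their own cell type, 1 gene in alpha, 7 in delta, 26 in macrophage and 20 in endothelial cells were below the filter of the diet test. For those genes the 0 calls are not read as a result. At an unadjusted p under 0.05 there were 4, 1, 1 and 1 genes (edgeR), counts not read as a result, and DESeq2 called 0. All genes were called in 0.11% (higher) and 0.126% (lower) of cases for alpha, 0.0773% and 0.0541% for delta, 0.00809% and 0.00809% for macrophage and 0.0875% and 0% for endothelial cells. Acat2 had the smallest p for alpha against beta cells, with a difference of 1.33 ± 0.437 (SE) and an edgeR adjusted p of 0.333. Hmgcs1 followed at 0.55 ± 0.202 (edgeR adjusted p = 0.498). Its alpha-cell levels were 23.2, 25.9 and 25.1 in chow mice 1, 2 and 3 and 29.8 and 33.7 in HC mice 1 and 2, both HC mice above the chow mice, while in beta cells both lay below them. For delta against beta cells Srebf1 had the smallest p (0.81 ± 0.382, edgeR adjusted p = 0.943).

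None of the 40 other lipid genes passed the diet test in any of the 6 cell types. In beta cells 18 of 19 genes of the wider fatty acid pathway were tested, 11 of them above 0 (median 0.052). The smallest p was that of Lpin1, which encodes a phosphatidate phosphatase of triglyceride synthesis, at 0.45 ± 0.112 on the log2 scale (unadjusted p = 0.00143, edgeR adjusted p = 0.572), followed by Mid1ip1 at -0.24 ± 0.116. In the efflux and storage group 9 of 11 were tested, 7 above 0, with Mylip at 0.45 ± 0.235 and the cholesterol esterification gene Soat1 at -0.15 ± 0.150. In the SREBP processing group 10 of 10 were tested, 7 above 0, with Tmem97 at 0.29 ± 0.157 and Aacs at 0.20 ± 0.113. In delta cells 1 of 7 tested efflux and storage genes was above 0 (median -0.25), against 8 of 8 in alpha cells (median 0.27), and no test was made between them.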

How the data were processed

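Single-cell RNA sequencing of islets from 3 chow and 2 HC mice was used as deposited, as raw UMI counts per gene and cell barcode, 1 matrix per mouse. Cell Ranger 4.0.0 and the mm10 build are named in the submitters' processing notes. The annotation release and cell calling settings were not given in the sources used here. Gene symbols came from a GRCm38 annotation.

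Barcodes with at least 1000 UMIs, 500 genes and at most 15% mitochondrial UMIs were kept. Doublet scoring called 33 of 22758 cells (0.145%), so it did not work and doublets remain. Cells were clustered in scanpy 1.11.5 (2000 variable genes without the lipid genes, 30 components, 15 neighbours, Leiden resolution 1, 19 clusters). To name a cluster, 3 or more of its 10 leading genes had to be markers of 1 type, that number had to be at least 2 times that of any second type, and each hormone belonging to other endocrine cells had to stay under 50% of its top cluster level. The other 9 clusters stayed unnamed.

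For each type with 20 or more cells per mouse, counts were summed by mouse. Tests ran under R 4.3.3 using edgeR 4.0.16 (scaling by TMM, low counts removed by filterByExpr, two-sided robust quasi-likelihood test, p adjusted by Benjamini-Hochberg over all genes tested, threshold 0.05). The diet model held diet only, and the library-name prefix was added as a term in an alternative. Cell type and interaction models held the mouse as a block. An SE is the log2 difference divided by the square root of its F statistic. DESeq2 1.42.0, other scalings, filters, clusterings and mice left out were alternatives, and scaling by all UMIs was added after seeing the data. The method was tested on simulated counts. Depth was 28722244 to 39624978 UMIs per library, and Poisson intervals cover counting error only.

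Named in full are up to 3 genes per direction of smallest p per diet test, up to 4 per direction of largest difference among calls per cell type contrast, Insig1, Srebf1, Srebf2 and Scd2, and the 2 of smallest p per other list in beta cells. Other genes were described after their values were seen. The genes and lists were chosen with earlier results of these data known. Replicate numbers only name the mice.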

Additional observations from a re-analysis of the deposited data

Results flagged for a closer look

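The values of Hmgcs1 lay on opposite sides of chow in alpha and beta cells. By non-hormone CPM the 2 HC values exceeded the 3 chow values in alpha cells and lay under them in beta cells, and the interaction was 0.55 ± 0.202 on the log2 scale, with an unadjusted p of 0.00662 that did not pass adjustment over all genes (edgeR adjusted p = 0.498). The alpha-cell difference was 0.31 ± 0.185, and within prefixes it was 0.33 within FUN and 0.35 within SKY, while the beta-cell difference was -0.45 within FUN and -0.039 within SKY.

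Cells of unnamed clusters carried the 30 genes too, outside the comparisons above. The cluster led by Ppy, Pyy and Tspan8 (1672 cells), which also held insulin transcripts, had 734 (95% Poisson interval 721 to 747) CPM of all UMIs over the 30 genes. The cluster led by Spp1, Wfdc18 and Lcn2 (287 cells) had 1398 (95% Poisson interval 1346 to 1452), and the cluster of cell cycle genes led by Ube2c, Top2a and Stmn1 (468 cells) had 681 (95% Poisson interval 653 to 708). Single mice ran from 549 to 846, from 1219 to 1669 and from 642 to 729 CPM in these clusters, in that order. The intervals pool the cells of all mice and leave out the spread between mice.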

How the results depend on the processing

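Mice were not paired by replicate number, because the labels give no numbers that pair chow with HC mice. Each prefix holds mice of both diets and was fitted as a term. Age, which follows exactly from prefix and diet here, was a term in another fit. That fit is the prefix fit written differently, with another split between the terms, so it is not a separate check. Diet calls among the 30 genes stayed at 0 under every alternative run, as did the interaction calls. The lowest edgeR adjusted p was 0.20 for diet, for alpha-cell Cyp51 with HC mouse 2 grouped as chow by its title, and 0.180 for the interaction, for Acat2 in alpha against beta cells without HC mouse 2. With the prefix as a term, called genes of all kinds went from 1 higher and 0 lower to 6 and 11 in beta, from 0 and 2 to 2 and 4 in delta, from 0 and 2 to 3 and 0 in macrophage and from 1 and 1 to 3 and 1 in endothelial cells. Median diet differences moved to -0.049 in beta cells with HC mouse 2 grouped as chow and 0.11 within SKY, to 0.18 in alpha cells with all UMIs as the scale and -0.00094 with age as a term, to 0.091 in macrophages without insulin-rich barcodes, and in stromal cells to 0.76 without them, 0.42 with age and 0.45 within FUN. Leaving out 1 mouse at a time gave medians of -0.013 to 0.13 in beta, 0.070 to 0.15 in alpha, 0.058 to 0.22 in delta, -0.33 to 0.079 in macrophage, -0.25 to 0.041 in endothelial and -0.26 to 0.25 in stromal cells.

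Cell type calls moved most with all UMIs as the scale: the higher and lower counts became 8 and 10 (alpha minus beta), 8 and 9 (delta minus beta), 0 and 12 (alpha minus delta), 3 and 4 (macrophage), 14 and 7 (endothelial) and 7 and 2 (stromal minus beta), and 4 and 1 (endothelial minus macrophage). On that scale the sign turned, with a call before, after or both, for alpha minus beta (Insig2 0.078, Pmvk 0.65, Mvk 0.43, Sc5d 0.42, Scap 0.27, Fasn 0.46, Ggps1 0.59, Ebp 0.24), delta minus beta (Mvk 0.16, Sc5d 0.83, Scap 0.29, Acly 0.047, Fasn 0.33, Ggps1 1.00, Fdft1 0.30, Fads2 0.49, Fads1 0.16, Ebp 1.08, Nsdhl 0.77), alpha minus delta (Fdps -0.11, Scap -0.017, Ggps1 -0.41, Sqle -0.47), macrophage minus beta (Insig2 0.24), endothelial minus beta (Insig2 1.46, Pmvk 0.54, Insig1 0.10, Dhcr7 1.38, Sc5d 1.02, Scap 0.86, Ggps1 1.31, Hmgcs1 0.82, Srebf2 0.59, Fads1 0.90), stromal minus beta (Insig2 0.68, Pmvk 0.082, Srebf1 0.068, Ggps1 0.99, Hmgcs1 0.68, Srebf2 0.18, Fads1 0.93) and endothelial minus macrophage (Ebp 0.033). Without insulin-rich barcodes Scd2 reversed in endothelial minus macrophage cells (1.53, edgeR adjusted p = 0.00118), stromal minus beta had 1 higher and endothelial minus macrophage 3 lower. The stricter cell filter (2000 UMIs, 1000 genes, 10% mitochondrial) gave 5 higher in alpha minus delta and 8 lower in macrophage minus beta. Endothelial minus beta had 1 higher under DESeq2, no low-count filter, the stricter cell filter, and without insulin-rich barcodes or the 6% highest doublet scores. Endothelial minus macrophage had 1 higher under RLE size factors, DESeq2 and the stricter filter, and 9 lower at resolution 0.5. With 1 mouse left out, higher and lower counts were 0 and 18 to 19 (alpha minus beta), 0 to 1 and 18 to 19 (delta minus beta), 6 to 8 and 3 to 4 (alpha minus delta), 1 and 12 to 14 (macrophage minus beta), 1 to 2 and 13 to 15 (endothelial minus beta), 0 to 1 and 10 to 12 (stromal minus beta), and 1 to 4 and 3 to 6 (endothelial minus macrophage). Over all tested genes of the 30, contrasts and alternatives, 110 single cell type values lost and 55 gained their call. Another 43 reversed in sign with a call before, after or both. The remaining 2193 include sign changes of values uncalled both times, and values of unchanged sign without an adjusted p. The cause of these changes was not tested. Depth limits macrophage, endothelial and stromal cells, where 26, 20 and 26 of the 30 genes were below the diet filter.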

Other observations

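By CPM of all UMIs, the highest level of the 30 genes was found in a cluster of 69 cells. The unnamed cluster led by Fabp7, Sostdc1 and Cryab gave 9 to 19 cells per mouse, with 2 Schwann markers among its 10 leading genes, which is under the 3 needed for a name. It had 4168 (95% Poisson interval 3775 to 4590.4) CPM of all UMIs over the 30 genes, and 3795 to 4821 in single mice, beside 852 in endothelial cells. The unnamed cluster led by Vip, Cartpt and Hbb-bt (93 cells) had 1528. Beta cells stood at 2637 by non-hormone CPM, a scale not given for these clusters. Scd2 was at 1133 (95% Poisson interval 933 to 1363), Fads2 at 597 (95% Poisson interval 454 to 769.9), Fads1 at 354 (95% Poisson interval 247 to 492) and Srebf1 at 223 (95% Poisson interval 139 to 337). The intervals cover counting error only, over 412 UMIs of these genes among 98851. The cluster was singled out after its values were seen, and it was too small for a test of diet.

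In the cluster led by Spp1, Wfdc18 and Lcn2, with 2 ductal markers among its leading genes, Fads2 was at 161 (95% Poisson interval 144 to 179.9) CPM, Scd2 at 148 (95% Poisson interval 131 to 166) and Fads1 at 38.4 (95% Poisson interval 30.2 to 48.1). Fads2 was at 20.0 CPM of all UMIs in stromal and 6.98 in beta cells, and at 28.4 and 22.5 non-hormone CPM.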
